A study of Drosophila melanogaster with 17 samples.

Results

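The transcription factors that give Drosophila motor neurons their identity were followed here in RNA recovered from tagged ribosomes. The set was chosen by gene symbol and holds 7 of the 16977 genes in the count tables, namely exex, Lim3, tup, HGTX, eve, zfh1 and vvl. All 7 were present in the table of each tissue and passed the filter on low counts in each. In the embryonic nerve cord these proteins act in combinations, and the combination sets which muscle field a motor axon reaches. Motor neurons of ventral muscles use exex, Lim3, tup and HGTX, those of dorsal muscles use eve, and zfh1 is found in motor neurons of both kinds. The genes also work outside the nervous system. In other tissues vvl patterns the trachea and wing veins, zfh1 acts in mesoderm and blood cells, and eve and tup act in heart or pericardial cells.

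Translating ribosome affinity purification (TRAP) recovers mRNA bound to ribosomes that carry a tagged subunit. In the 3 head TRAP and 3 leg TRAP libraries the DIP-gamma-GAL4 driver expressed UAS-Flag-GFP-RpL10, in flies 2 days old. In the 3 larval TRAP libraries OK371-GAL4 drove the same transgene, in sections of L3 larvae (the last larval stage) that were cut to hold axons and not the ventral nerve cord. The controls carried UAS-Flag-GFP-RpL10/+ with no driver, in 3 head, 3 larval and 2 leg libraries. DIP-gamma-GAL4 is an insertion in the DIP-gamma gene and marks a subset of neurons, and OK371-GAL4 is an enhancer trap in VGlut, the vesicular glutamate transporter. The transgene leaks without a driver, so the controls hold RNA from many cell types. Each library came from pooled animals, males alone for the heads and both sexes for the legs. Each tissue had its own batch label, so tissue and batch cannot be told apart. In such bulk material, fewer cells of a type and less RNA per cell cannot be told apart either.

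Total counts ran from 29512310 to 88324615 per library, so that 3 counts correspond to 0.0340 to 0.102 CPM, the count scaled to 1e6 counts in the library. Levels below are normalised CPM, scaled by library size and the trimmed mean of M-values (TMM) within a tissue. Larval control 1 and larval TRAP 2 stood apart, with 5504 and 6086 genes at 0 counts against 782 to 3163 in the other larval libraries. Larval TRAP libraries also held salivary gland RNA, with the summed level of 5 gland markers at 2818 to 30218 CPM against 59.3 to 130 CPM in the controls. The summed level of 12 neuron markers was 843 to 1016 CPM in head controls and 1446 to 5048 CPM in head TRAP libraries. It overlapped between genotypes in larval sections (155 to 222 CPM in controls, 111 to 443 CPM in TRAP) and in legs (397 to 451 CPM and 381 to 448 CPM). Single markers could differ under an overlapping sum. At an unadjusted p under 0.05 by edgeR, 4 of 12 were higher and 0 lower in larval sections, and 2 higher and 1 lower in legs. Gad1, also named after its values were seen, had log2 fold changes of 8.57 in heads and 5.26 in legs (edgeR adjusted p = 0.000775 and 0.132). VGlut, the gene that holds the larval driver and one named here after its values were seen, was at 31.9, 1.08 and 0.320 CPM in the larval TRAP libraries and at 0.0566, 1.69 and 0.271 CPM in the controls.

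In heads, most of the motor neuron factors were higher in RNA from DIP-gamma neurons than in the driverless controls. The genes exex, Lim3, tup, HGTX and zfh1 rose, by 1.10 to 4.49 on the log2 scale. The test called no gene of the set lower. By edgeR's quasi-likelihood test with Benjamini-Hochberg adjustment over 16638 genes, 5 of 7 were called higher, where 7.23% of all genes tested were called higher and 9.41% lower. All head TRAP libraries were above all controls for 6 of 7, as they were for 16.3% of all genes tested, and below all controls for vvl. The median log2 fold change of the set was 2.11, beside 0.32 over all genes tested. Leaving out 1 head library gave 2 to 6 genes called. There were 2 (exex and Lim3) without any 1 control or TRAP 2, and 3 without TRAP 1. Without TRAP 3 there were 6, of which vvl was called lower (-0.64, edgeR adjusted p = 0.0159). Over all genes these fits called 704 to 1713 higher and 775 to 1979 lower, against 1203 and 1565 with all libraries, with the most higher and the most lower without TRAP 3. In 1 fit of all tissues, which share one estimate of the spread, 0 of 7 were called in heads, with log2 fold changes of 0.98 to 4.39 for the same 5 genes.

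**Figure D1:**
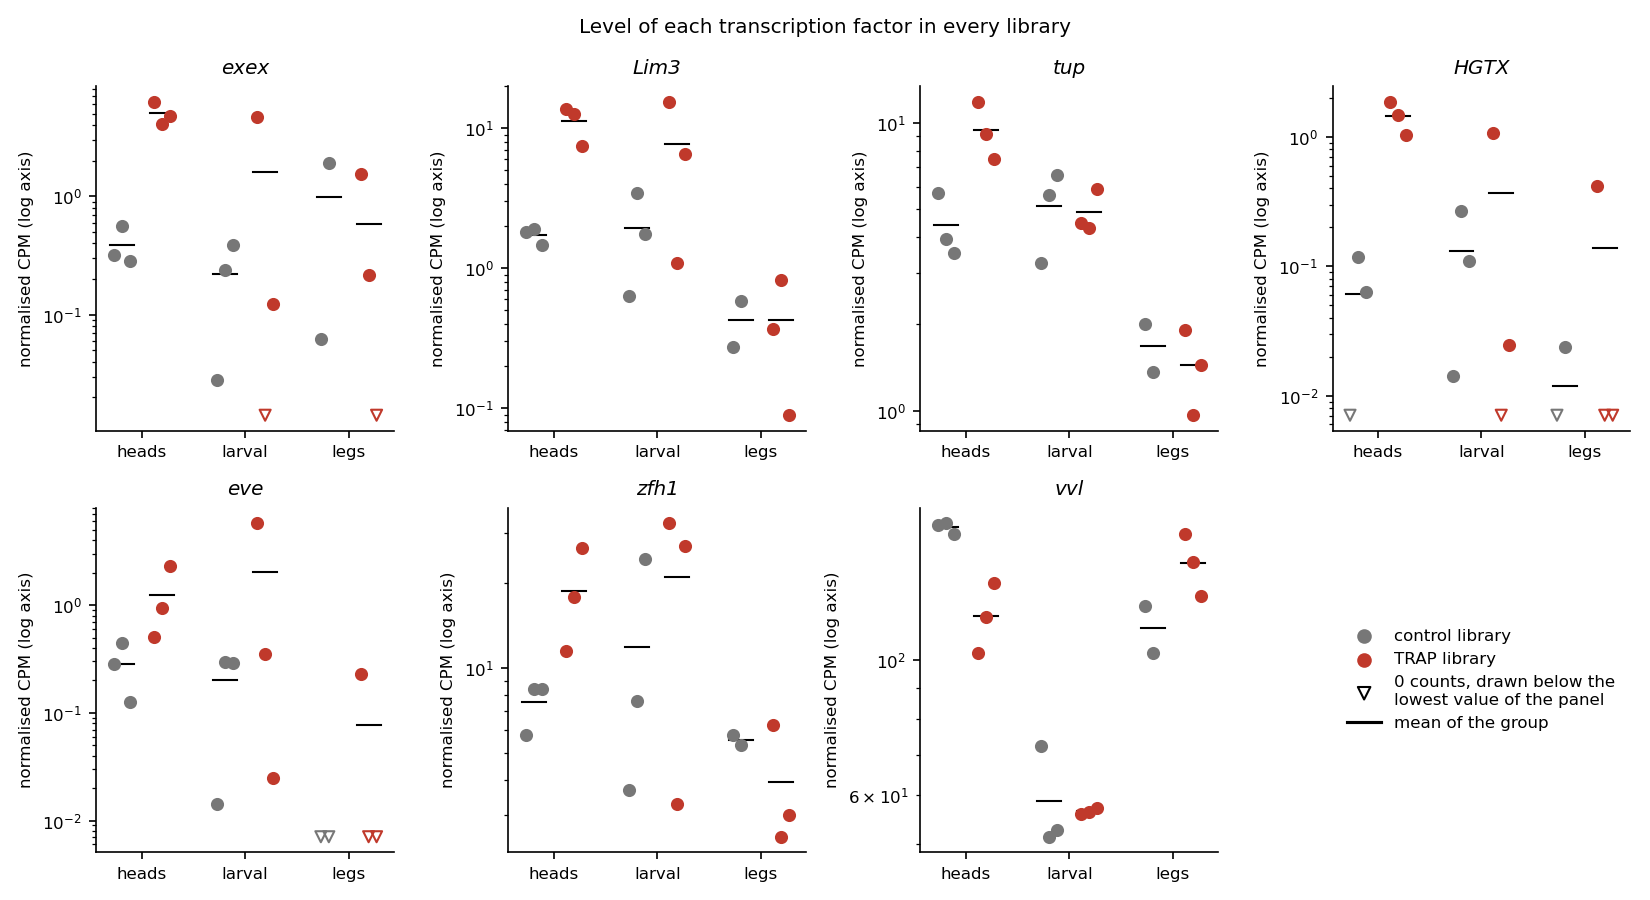
Normalised CPM (log axis) of each transcription factor in every library, with controls in grey on the left and TRAP libraries in red on the right of each tissue; black bars are group means and open triangles are libraries with 0 counts. In heads the TRAP libraries lie above all controls for each gene except vvl, where they lie below, and in larval sections the groups overlap for all 7.

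The homeobox gene exex encodes the fly counterpart of vertebrate HB9, a repressor found in motor neurons of ventral muscles. It lies at 3L:7948186-7951563 on the plus strand of BDGP6 (FBgn0041156), with 1 annotated transcript. The head controls held 10, 19 and 9 counts of exex, at 0.318, 0.565 and 0.287 CPM. The head TRAP libraries held 239, 143 and 192 counts, at 6.31, 4.11 and 4.82 CPM. Each TRAP library was thus far above each control. The log2 fold change was 3.69 (SE 0.57, edgeR adjusted p = 0.00239), and exex passed the threshold in 6 of 6 fits that left out a library.

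The LIM-homeodomain gene Lim3 (FBgn0002023, 2L:19079256-19108427, minus strand) works with tup to separate classes of ventral motor neurons. It was at 1.81, 1.90 and 1.46 CPM in head controls and at 13.7, 12.7 and 7.50 CPM in head TRAP libraries. Again the groups did not overlap, and TRAP 3 was the lowest of the TRAP libraries. The log2 fold change was 2.71 (SE 0.35, edgeR adjusted p = 0.00120), and it too passed in 6 of 6 fits that left out a library. CG17344 and CG43731 overlap Lim3 on the other strand and were listed with at most 62 counts in a head library, against 299 to 520 counts of Lim3 in the head TRAP libraries. The strand setting of the counting was not stated in the sources used here, so reads of such partners cannot be told apart.

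The other LIM-homeodomain gene of the set, tup (FBgn0003896, 2L:18859507-18881261, minus strand), is the fly Islet gene, which directs the axons of ventral motor neurons and shapes their potassium currents. Its head levels were 5.72, 3.95 and 3.53 CPM in controls and 11.8, 9.12 and 7.45 CPM in TRAP libraries. The TRAP values lay above the controls by a smaller factor than those of Lim3, with a log2 fold change of 1.10 (SE 0.33, edgeR adjusted p = 0.0461). The call held in only 1 of 6 fits that left out a library, that without TRAP 3 (adjusted p = 0.0200), and the adjusted p was 0.0570 to 0.149 in the others.

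The gene HGTX (FBgn0040318, 3L:14583222-14599540, minus strand) encodes the fly Nkx6 homeodomain protein, which promotes ventral motor neuron fates together with exex. It was scarce. Head controls held 0, 4 and 2 counts, and head TRAP libraries 71, 51 and 41 counts, at 1.87, 1.47 and 1.03 CPM. All TRAP libraries were above all controls, and 1 control was at 0. The fitted log2 fold change was 4.49 (SE 1.23, edgeR adjusted p = 0.0332), and the pooled counts, 163 against 6, gave a ratio of 23.3 with an exact 95% interval of 10.5 to 64.4 that covers counting error only. Leaving out a library kept the call in 1 of 6 fits, that without TRAP 3 (adjusted p = 0.0166), and the adjusted p was 0.0507 to 0.109 in the others.

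The zinc finger homeodomain gene zfh1 (FBgn0004606, 3R:30765926-30789202, plus strand) is expressed widely in motor neurons. Head controls were at 5.78, 8.44 and 8.44 CPM and head TRAP libraries at 11.5, 17.9 and 26.7 CPM. The lowest TRAP library exceeded the highest control, and the TRAP libraries differed among themselves by more than the controls did. The log2 fold change was 1.31 (SE 0.33, edgeR adjusted p = 0.0227). The call held without TRAP 1 (adjusted p = 0.00552) and without TRAP 3 (0.0357) and was lost in the fits without TRAP 2 or any 1 control (0.0504 to 0.0940). The summed level of 7 haemocyte markers was at 142 to 157 CPM in head controls and at 112 to 148 CPM in head TRAP libraries, with none of the 7 at 0. Of these markers Pxn was called higher and crq lower, and their part in the zfh1 difference was not tested.

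The homeobox gene eve (FBgn0000606, 2R:9979319-9980795, plus strand) marks motor neurons of dorsal muscles and some interneurons. It was at 0.286, 0.446 and 0.127 CPM in head controls and at 0.501, 0.949 and 2.31 CPM in head TRAP libraries. The groups did not overlap, but the gap between control 2 and TRAP 1 was small and TRAP 3 held 92 of the 144 TRAP counts. The log2 fold change of 2.11 (SE 1.01) did not pass the test (edgeR adjusted p = 0.197). The noncoding gene CR43948 overlaps eve on the other strand and was listed with 9 to 160 counts in the head libraries, more than eve in some of them.

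The POU-homeodomain gene vvl (FBgn0086680, 3L:6790158-6794941, plus strand) takes part in sorting ventral motor axons and is also a gene of trachea and epidermis. It was the most abundant gene of the set, at 167, 168 and 162 CPM in head controls and 103, 118 and 134 CPM in head TRAP libraries. All TRAP libraries were below all controls, as were 18.2% of all genes tested. The log2 fold change was -0.48 (SE 0.17, edgeR adjusted p = 0.0785), which missed the threshold. Summed trachea markers, with none of the 5 at 0, were also lower, at 513 to 543 CPM in TRAP libraries against 657 to 877 CPM in controls. Of these markers serp, verm and Gasp lay below all controls, and trh and btl overlapped. Summed muscle markers were at 6885 to 11676 CPM and 19660 to 31059 CPM. Their part in the vvl difference was not tested. Scaled by library size alone, the log2 fold change of vvl was 0.02, under which the median of all genes rose by 0.49.

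**Figure D2:**
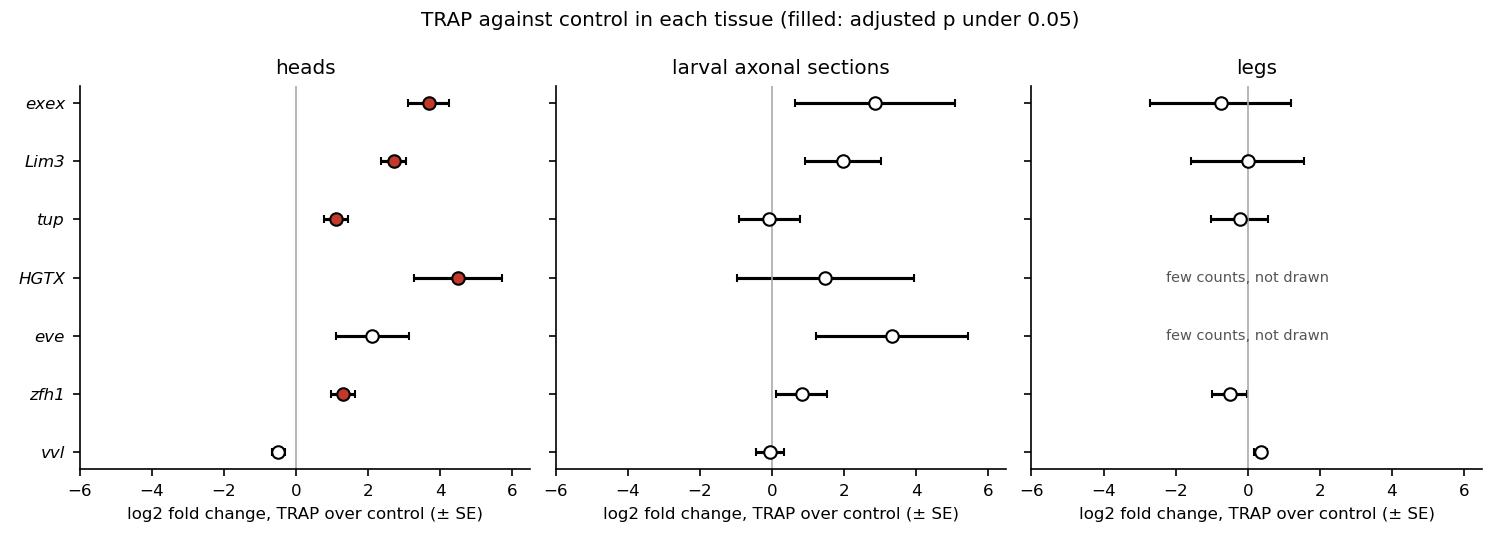
Log2 fold change of TRAP over control (points) with its standard error (bars) for each gene and tissue from edgeR; filled points have an adjusted p under 0.05. The 5 filled points are exex, Lim3, tup, HGTX and zfh1 in heads, and eve and HGTX are not drawn in legs, where most libraries held 0 counts.

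The head TRAP libraries did not carry the factors in one fixed proportion. Those of Lim3, tup and HGTX were in the same order as the neuron marker sum, which was 5048, 3612 and 1446 CPM in TRAP 1, 2 and 3. Levels of zfh1, eve and vvl were in the opposite order, highest in TRAP 3, the head library with the most genes detected (16469, against 13796 to 15817 in the other head libraries). In exex, TRAP 1 was highest and TRAP 2 lowest. With 3 libraries these orders are descriptions only, and the part of library breadth was not tested.

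**Figure D3:**
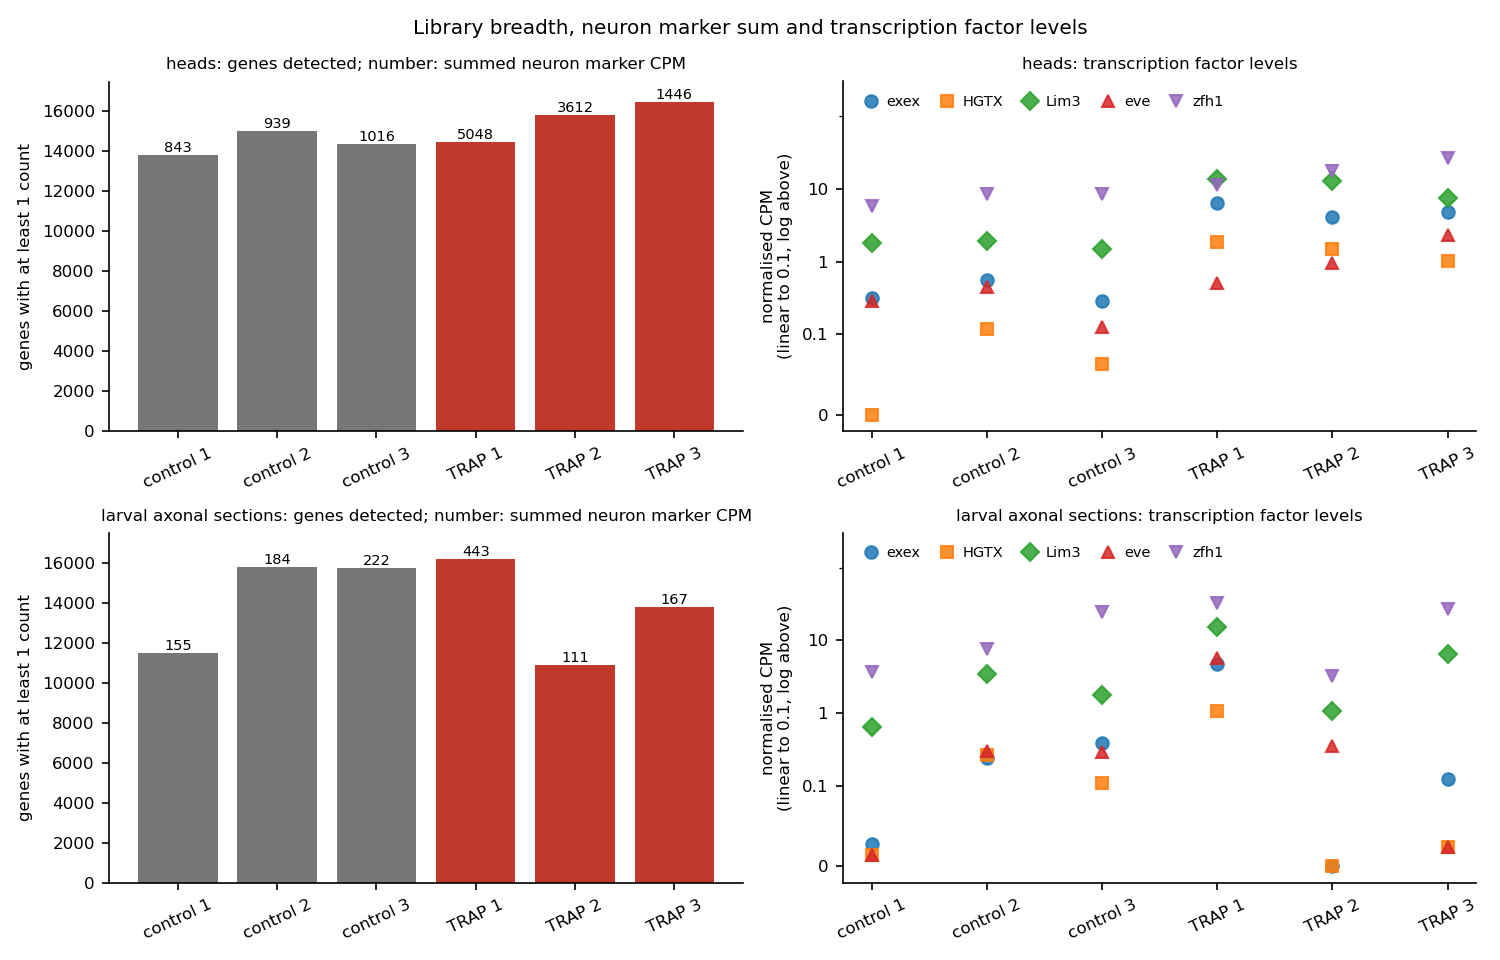
Left, genes with at least 1 count in each head and larval library, with the summed CPM of 12 neuron markers above each bar; right, normalised CPM of 5 of the factors in the same libraries (linear to 0.1, logarithmic above). Larval TRAP 1, with 16195 genes detected, is the larval library with the highest exex, HGTX, Lim3, eve and zfh1.

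Levels can be compared between genes only per length, and whether exons or whole genes were counted is not given in the sources used here. Per kilobase of annotated exon, vvl was the highest of the set in head TRAP RNA, at 24.7 ± 3.27 CPM per kb (SD, n = 3), followed by tup (2.86 ± 0.665), zfh1 (2.70 ± 1.11), Lim3 (2.64 ± 0.776), exex (2.14 ± 0.471), eve (0.891 ± 0.669) and HGTX (0.483 ± 0.140 CPM per kb). From tup to exex, neighbours in that order did not differ by more than the spread between libraries, nor did eve and HGTX. Per kilobase of the whole gene span, an alternative chosen after the data were seen, the order below vvl changed to exex (1.5 ± 0.331), eve (0.848 ± 0.637), zfh1 (0.803 ± 0.329), tup (0.435 ± 0.101), Lim3 (0.387 ± 0.114) and HGTX (0.0892 ± 0.0259 CPM per kb of span). The top and bottom places, vvl and HGTX, were the same by both lengths, and the order between them depends on which was counted. In head controls vvl stood at 34.6 ± 0.733 CPM per kb of exon, and HGTX was again the lowest (0.0202 ± 0.0197 CPM per kb of exon).

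In larval axonal sections, the question was whether the same mRNAs were recovered from OK371 neurons once the cell bodies had been cut away. No gene of the set passed the test. By edgeR 0 of 7 were called in either direction, where 0.234% of all genes tested were called higher and 0.012% lower. At an unadjusted p under 0.05 the count was also 0, against 4.13% of all genes higher and 2.58% lower. By DESeq2 it was 0 as well, but exex and HGTX had no adjusted p there. Of 11672 genes with an adjusted p, DESeq2 called 196 higher and 30 lower. The controls and TRAP libraries overlapped for all 7 genes, while 4.53% of all genes had every TRAP library above every control and 5.76% below. The median log2 fold change of the set was 1.49, beside 0.25 over all genes. That median is the value of HGTX, whose TRAP counts lay almost all in TRAP 1. Without TRAP 1 the value of HGTX was -3.15, and the median over all genes was -0.26.

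A single library carried most of the larval counts of the scarcer factors. Counts of exex were 2, 24 and 39 in controls and 323, 0 and 5 in TRAP libraries, at 4.71 CPM in TRAP 1. Those of eve were 1, 30 and 29 in controls and 395, 10 and 1 in TRAP libraries. For HGTX they were 1, 27 and 11 in controls and 74, 0 and 1 in TRAP libraries. In each case TRAP 1 was the highest library, and TRAP 2 and 3 reached no further than the controls, except eve in TRAP 2 (0.349 CPM, against at most 0.298 CPM in a control). The log2 fold changes were 2.87 (SE 2.22) for exex, 3.33 (SE 2.11) for eve and 1.49 (SE 2.46) for HGTX, and without TRAP 1 they were -1.78, -0.04 and -3.15. In TRAP 1 CR43948, the antisense neighbour of eve, was listed with 556 counts. TRAP 1 was also the larval library with the highest sum of neuron markers (443 CPM, against 111 to 222 CPM in the others) and of 4 heart and pericardial cell markers (20.7 CPM, against 1.78 to 8.22 CPM), and their part in these levels was not tested.

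In the same sections Lim3 and zfh1 were spread over more libraries. The level of Lim3 was 0.637, 3.47 and 1.75 CPM in controls and 15.5, 1.08 and 6.55 CPM in TRAP libraries. TRAP 1 and 3 were above all controls and TRAP 2 was below 2 of them. Its log2 fold change of 1.98 (SE 1.05) had an unadjusted p of 0.0740 and an edgeR adjusted p of 0.795. The level of zfh1 was 3.68, 7.63 and 24.2 CPM in controls and 32.6, 3.28 and 27.1 CPM in TRAP libraries, and its log2 fold change was 0.83 (SE 0.71). Again TRAP 2 was the low TRAP library and control 1 the low control. Without these 2 libraries together, an alternative chosen after the data were seen, Lim3 was at 1.86 (adjusted p = 0.375) and zfh1 at 0.73 (adjusted p = 0.645), and 0 of 7 genes were called.

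Levels of vvl and tup were close to even between larval genotypes. For vvl the controls were at 72.4, 51.3 and 52.7 CPM and the TRAP libraries at 55.9, 56.2 and 57.2 CPM, a log2 fold change of -0.06 (SE 0.39). The TRAP libraries lay between control 1 and the other two controls. For tup the controls were at 3.25, 5.60 and 6.57 CPM and the TRAP libraries at 4.48, 4.29 and 5.88 CPM, a log2 fold change of -0.07 (SE 0.84). Summed trachea markers were not even, at 427 to 778 CPM in controls and 192 to 301 CPM in TRAP libraries.

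In legs, the comparison asked the same of the axons of DIP-gamma motor neurons, whose cell bodies lie in the thorax. None of the factors passed the test, and eve and HGTX were at 0 in most leg libraries. By edgeR 0 of 7 were called, where 0.113% of all genes tested were called higher and 0.12% lower (0.232% in all). The count at an unadjusted p under 0.05 was 0, against 4.68% of all genes higher and 4.41% lower. That by DESeq2 was 0 as well, but eve had no adjusted p there. Of 12235 genes with an adjusted p, DESeq2 called 354 higher and 247 lower. The median log2 fold change of the set was -0.00, beside -0.01 over all genes.

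The leg libraries held few counts of eve and HGTX, and exex and Lim3 varied widely between them. Counts of eve were 0 and 0 in controls and 15, 0 and 0 in TRAP libraries. Those of HGTX were 0 and 2 in controls and 27, 0 and 0 in TRAP libraries, and the pooled ratio of 10.2 had an exact 95% interval of 2.56 to 88.5 for counting error. All of these TRAP counts were in TRAP 1. For exex the controls were at 0.0623 and 1.90 CPM and the TRAP libraries at 1.54, 0.217 and 0 CPM, so that single libraries of both genotypes were high. Its log2 fold change was -0.74 (SE 1.95). For Lim3 the controls were at 0.274 and 0.585 CPM and the TRAP libraries at 0.369, 0.829 and 0.0891 CPM, a log2 fold change of -0.00 (SE 1.58).

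Levels of tup, zfh1 and vvl varied less. The level of tup was 1.99 and 1.36 CPM in controls and 1.91, 0.965 and 1.44 CPM in TRAP libraries, a log2 fold change of -0.22 (SE 0.79). That of zfh1 was 5.77 and 5.34 CPM in controls and 6.26, 2.51 and 3.0 CPM in TRAP libraries, a log2 fold change of -0.50 (SE 0.48). Both overlapped between genotypes. For vvl the controls were at 123 and 103 CPM and the TRAP libraries at 162, 145 and 128 CPM. All 3 TRAP libraries were above both controls, as were 11.8% of all genes tested, and the log2 fold change of 0.36 (SE 0.17) had an edgeR adjusted p of 0.597. Summed trachea markers, 888 to 1304 CPM in leg controls, were 1483 to 1489 CPM in leg TRAP libraries. Of the single markers only Gasp had all TRAP libraries above both controls. The part of these markers in the vvl values was not tested.

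The TRAP effect itself was then compared between tissues, as an interaction term in one edgeR fit of each pair of tissues. Between heads and legs, 0 of 7 genes passed, where 2.54% of all genes had a larger and 4.29% a smaller effect in heads. At an unadjusted p under 0.05 the count was 4 (vvl, zfh1, Lim3 and exex), where 10.7% of all genes had a larger and 12.2% a smaller effect. By DESeq2 it was 2, Lim3 and zfh1, where 8.46% were larger and 7.31% smaller. The largest gap relative to its error was that of vvl, lower by TRAP in heads and higher in legs, with a difference of -0.87 (SE 0.25, adjusted p = 0.0522). For zfh1 the difference was 1.78 (SE 0.58, adjusted p = 0.0811) and for Lim3 2.67 (SE 0.97, adjusted p = 0.118). Between heads and larval sections 0 of 7 passed by edgeR, at an unadjusted p under 0.05 and by DESeq2, where by edgeR 0.0178% of all genes passed in each direction, at an unadjusted p 5.23% were larger and 3.86% smaller, and by DESeq2 1.23% were larger and 2.35% smaller. The rise of exex, Lim3, tup, HGTX and zfh1 in heads is therefore not shown to be particular to heads.

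Related genes in heads were read from lists of the same families and of reported targets. Of 7 LIM genes outside the set and their partners, 5 rose and the test called none lower (median log2 fold change 1.86). Of all genes tested in heads, 7.23% were called higher and 9.41% lower. CG4328 and Lmx1a, both LIM-homeodomain genes, rose the most. CG4328 had 2, 1 and 8 counts in controls and 742, 518 and 157 in TRAP libraries, a log2 fold change of 6.76 (SE 0.84, edgeR adjusted p = 0.00107). Lmx1a had 7, 14 and 3 counts in controls and 490, 235 and 199 in TRAP libraries, a log2 fold change of 5.04 (SE 0.64, adjusted p = 0.00113). For both, TRAP 1 was the highest library, as for Lim3. Awh, a further LIM-homeodomain gene, rose by 2.36, and Bx, a LIM-only protein that binds the LIM cofactor, rose by 1.86. Of 4 other POU genes 0 were called, with 1 at an unadjusted p under 0.05 and 1 by DESeq2, and their median of 0.29 was close to the 0.32 of all genes. At that unadjusted p 14.6% of all genes were higher and 15.2% lower.

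**Figure D4:**
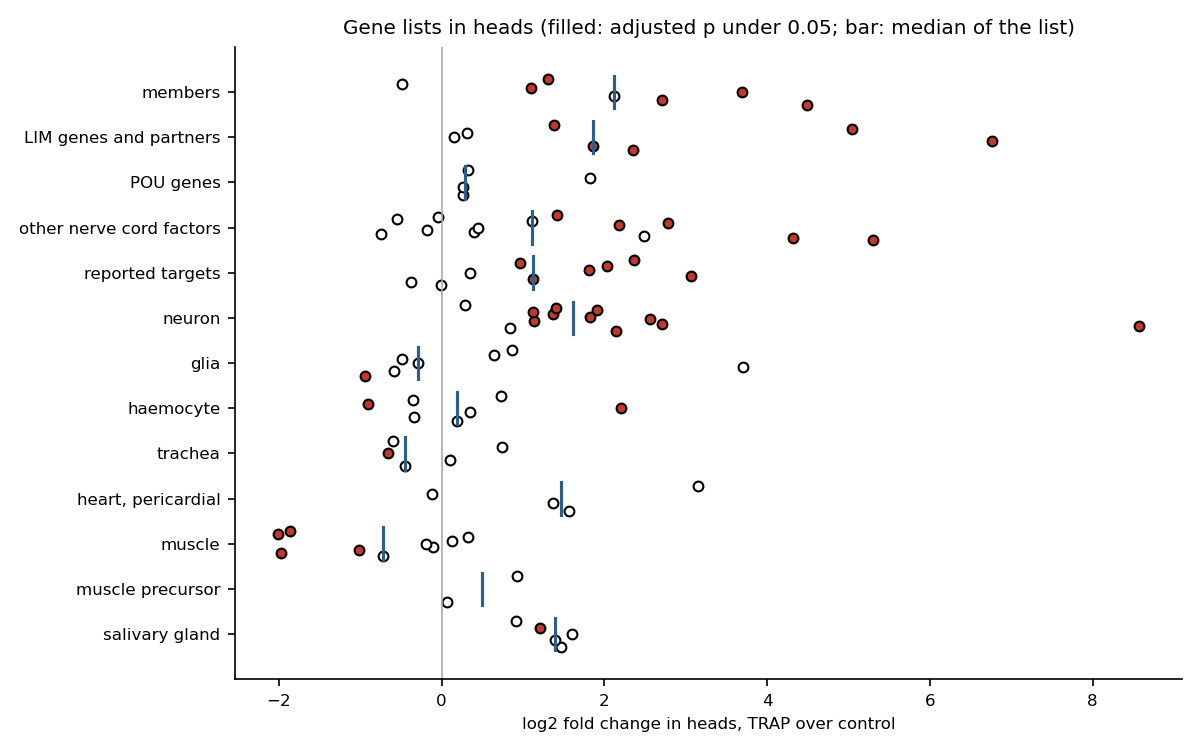
Log2 fold change in heads, TRAP over control, of each gene in the lists named at the left (13 lists); filled points have an edgeR adjusted p under 0.05 and bars are list medians. Members, other LIM genes, nerve cord factors, reported targets and neuron markers hold filled points to the right of 0, as do haemocyte (Pxn) and salivary gland (fkh) markers. Muscle, glia (Eaat1), haemocyte (crq) and trachea (serp) markers hold filled points to the left.

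Of 13 other transcription factors of nerve cord neurons, 5 rose in heads and the test called none lower (median 1.11). Beside this and the lists below, 7.23% of all genes were called higher and 9.41% lower. Dbx, a homeobox gene of interneurons, rose by 5.30 on the log2 scale from 2, 2 and 0 counts to 118, 47 and 32. Ptx1 rose by 4.31 and otp by 2.78, both homeobox genes, and kn, a COE factor of peptidergic and sensory neurons, rose by 2.17. The rise in heads was thus shared by factors that are not known as motor neuron genes. Among 9 genes reported to lie downstream of the motor neuron factors in embryos or larvae, 6 rose and the test called none lower (median 1.13). Nrg, named here after its values were seen, was at 190 to 209 CPM in controls and 146 to 157 CPM in TRAP libraries, a log2 fold change of -0.38 with an unadjusted p of 0.0361 and an edgeR adjusted p of 0.135. The 6 that rose included beat-Ia, a protein that loosens motor axons from each other (3.06), and unc-5, a netrin receptor (2.36). They also included robo3 and robo2, receptors for Slit (2.03 and 1.82). Neuron markers moved with all of these, 10 of 12 of them higher in heads. No gene of the 4 lists was called in larval sections or legs by edgeR, where 1 and 2 genes had an unadjusted p under 0.05. Over all genes that p was met by 4.13% higher and 2.58% lower in larval sections, and by 4.68% and 4.41% in legs.

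Genes whose level most resembled each factor were found by Pearson correlation of log2 CPM over the 17 libraries, out of 10850 genes whose mean reached 1 CPM. The libraries share their tissue and its batch label, so these values describe the pattern over 3 tissues as well as that within them. Nearest to exex were NPFR, a neuropeptide receptor gene (r = 0.90), CG9109 (0.87) and erm (0.87). Nearest to HGTX were Drep2 (0.91), beat-Vc (0.89) and Nmdar2, a subunit of the NMDA receptor (0.89). Nearest to Lim3 were DIP-alpha, a cell surface immunoglobulin gene of neurons (0.94), CG18208 (0.92) and E(Pc) (0.92). For tup the nearest were psq (0.94), Gug (0.93) and nej (0.92), regulators of transcription used in many cells. Those nearest to zfh1 were InR, the insulin receptor (0.92), Fancd2 (0.91) and CG15468 (0.91). For eve they were Muc91C (0.92), sim (0.90) and ACXA (0.89), and for vvl CG9372, CG10208 and CG14763 (0.94 each). Among the factors themselves, exex and HGTX were the most alike (0.85), followed by tup and Lim3 (0.80), while vvl ran against tup (-0.72). Both exex and HGTX held 0 counts in some libraries and few in others. There the prior count added before the log weighs on their correlations.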

How the data were processed

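SMART-Seq HT cDNA was sequenced in paired reads by the authors, who used Trim Galore for trimming, HISAT2 2.2.1 for alignment to BDGP6, SAMtools 1.12 for sorting and SeqMonk for quantification. Raw gene counts were deposited, unscaled and in whole numbers, 1 table a tissue. Whether reads or pairs, exons or whole genes were counted, and the strand setting, are not given in the sources used here. Of 16977 gene IDs, 16872 were in the BDGP6 annotation, 16755 at the same start and end, and exon lengths came from that annotation.

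Each gene that had 1 count or more in any library of a tissue was tested in edgeR 4.0.16 (R 4.3.3) with TMM scaling and the two-sided quasi-likelihood test, adjusted by Benjamini-Hochberg with a threshold of 0.05. Standard errors derive from the F statistic. Likeness used a prior count of 2. Alternatives were DESeq2 1.42.0, other scalings and filters, robust dispersion, a replicate block, 1 fit of all tissues and leaving out libraries. The code was tested on simulated data. No 2 libraries were copies. Labels call the samples biological replicates and nothing more, and p-values measure the spread between them. Counts carry no molecular identifiers. Intervals pool the libraries of a group, treat each count as independent and cover counting error only, not amplification or the spread between libraries.

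Members and lists were chosen with earlier results of these data known, and their calls are not independent evidence. All members are named; list genes are named where they passed the threshold (at most 4 a list, by size of change), marker lists by their sums, and the 3 most alike genes for each member. CG32105 of the LIM list is Lmx1a in the tables. Sequences were not used here.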

Additional observations from a re-analysis of the deposited data

Results flagged for a closer look

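The TRAP libraries lay on opposite sides of the controls for vvl in the adult tissues, although the effect passed the test in neither (edgeR adjusted p = 0.0785 in heads and 0.597 in legs). All 3 head TRAP libraries (103 to 134 CPM) were below all head controls (162 to 168 CPM), as were 18.2% of all genes tested. All 3 leg TRAP libraries (128 to 162 CPM) were above both leg controls (103 and 123 CPM), as were 11.8%. The gene was flagged for this separation, and the share of all genes with both was not counted. The difference between the effects, heads minus legs, was -0.87 on the log2 scale (SE 0.25, edgeR adjusted p = 0.0522 over 16706 genes), which misses the threshold. With library size alone the log2 fold change in heads turned from -0.48 to 0.021. Across 17 alternative settings the difference ran from -1.01 to -0.34, and it passed in 2 of them, with filterByExpr (adjusted p = 0.0499) and without head TRAP replicate 3 (adjusted p = 0.0177). Summed trachea markers were lower by TRAP in heads and higher in legs, as was vvl, but the single markers did not all follow. In heads serp, verm and Gasp were lower (-0.66, -0.59 and -0.45), and trh and btl were not (0.75 and 0.10). In legs trh and btl were near 0 (-0.09 and 0.04). In larval sections the sum was lower by TRAP (192 to 301 CPM against 427 to 778 CPM), while vvl was near even (-0.06). The part of these markers was not tested.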

How the results depend on the processing

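The count of 5 genes called in heads was 5 under DESeq2, relative log expression scaling, library size alone, filterByExpr and robust dispersion, and 4 where every library needed a count, which left HGTX out. It was 0 in 1 fit of all tissues, in which the whole-genome calls also fell to 52 higher and 139 lower from 1203 and 1565. Leaving out 1 library gave 2 to 6, with 2 without any 1 control or TRAP 2, 3 without TRAP 1, and 6, vvl included, without TRAP 3. Calls over all genes moved as well. They were 704 to 850 higher and 882 to 1013 lower without a control, and 777 and 775 without TRAP 2. Without TRAP 1 they were 1234 and 1941, and without TRAP 3 they were 1713 and 1979. Scaling by library size alone turned the split of all calls in heads to 2909 higher and 463 lower, and DESeq2 called 2060 and 1806. In larval sections and legs the count was 0 in every alternative run that left more than 1 library in each group. Some of these runs did not hold the whole set. With filterByExpr 6 genes of the set were tested in larval sections and 5 in legs. Where every library needed a count these were 5 and 4, and without leg TRAP 1 they were 6 in legs. Among all larval genes DESeq2 called 196 higher and 30 lower, against 39 and 2. Among all leg genes it called 354 and 247, against 16 and 17. For heads against legs the count for the set was 2 with DESeq2, 1 with library size alone (zfh1) and 1 with filterByExpr (vvl). It was 0 to 1 without single libraries other than a leg control. There zfh1 passed without head TRAP 1 or leg TRAP 1, vvl without head TRAP 3 and Lim3 without leg TRAP 2. Where every library needed a count it was 0, with only 4 genes of the set tested. For heads against larvae the count was 0 to 0, with 5 genes of the set tested where every library needed a count.

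Directions that turned were vvl in heads with library size alone (0.021), tup in larvae with DESeq2 (0.023) and relative log expression (0.024), vvl in larvae with the same 2 (0.056 each), and Lim3 in legs, whose log2 fold change is near 0, with DESeq2 (0.00581), relative log expression (0.00631), library size alone (0.0100), filterByExpr (0.00444) and a count in every library (0.00274). Without single libraries the larval log2 fold changes ran from -0.22 to 0.092 (vvl), -0.34 to 0.11 (tup), -1.78 to 3.41 (exex), -0.043 to 3.91 (eve) and -3.15 to 2.53 (HGTX), and those in legs from -0.49 to 0.078 (tup), -3.16 to 3.19 (exex), -0.90 to 0.64 (Lim3) and -3.10 to 6.38 (HGTX). The leg fit without a control assumes that the lone control varies like the other libraries. The cause of these changes was not tested.

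Samples with the same replicate number in their titles did not deviate together in every pair. The correlations were r = 0.28, 0.13 and 0.07 in heads, -0.50, -0.26 and -0.00 in larvae, and 0.04 and 0.05 in legs. The title numbers were therefore not taken as pairs. The deposited columns carry other numbers for many samples, and no head control shares its column number with a head TRAP library. Shared column numbers joined larval control 2 with TRAP 2 (-0.26), larval control 3 with TRAP 3 (-0.00) and leg control 2 with leg TRAP 1 (-0.04). The replicate block used the title numbers too. With it 5 genes were called in heads, 0 in larvae and 0 in legs. The replicate block turned the direction of exex (-1.09) and HGTX (-1.57) in larvae and of exex (0.64) and Lim3 (0.46) in legs.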
